A study of Mus musculus with 12 samples.

Results

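The semaphorins, the plexins and the neuropilins were followed through RNA-seq libraries of OPCs and neurons sorted from mouse cortex. Members were the protein-coding genes whose symbols begin with Sema3 to Sema7 or with Plxn, together with Nrp1 and Nrp2, wherever both deposited tables list them. This gave 31 genes, namely 20 semaphorins, 9 plexins and 2 neuropilins, out of 30165 genes in the OPC table and 17918 in the neuron table. All 31 had a mean normalized count of at least 10 in both cell types and all were tested.

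Semaphorins are secreted, membrane-spanning or lipid-anchored guidance proteins, and plexins are the receptors through which most of them act on the cytoskeleton of the receiving cell. Most secreted class 3 semaphorins need a neuropilin as the binding part of a plexin complex, whereas the membrane-bound classes can bind plexins directly. In the brain these cues steer axons and dendrites, guide migrating oligodendrocyte precursors and shape the contacts of neurons and blood vessels.

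The study compared dKO with ctl mice, in which dKO stands for loss of the L-type calcium channel genes Cacna1c and Cacna1d (the pores of Cav1.2 and Cav1.3) from cells that express NG2. In dKO mice a tamoxifen-inducible Cre under NG2 control recombined floxed alleles of both genes, so the deletion was aimed at cells that express NG2, which pericytes do as well as OPCs, and not at neurons. The ctl mice are labelled WT, and whether they carried Cre or floxed alleles is not given in the sources used here, nor is the age at which these cells were collected. Per the study's methods, 100 mg/kg tamoxifen was given on P7 and P8, most of the study's mouse lines were kept on a C57BL/6N background, and each group of each cell type had 3 libraries made from pooled pairs of mice (6 mice per group). OPCs were taken as cells held on a magnetic column by beads against CD140, NG2 and O4, and neurons as the cells that passed the column after other cells had been bound with beads for astrocytes (ACSA-2), endothelial cells (CD31), microglia (CD11b) and the oligodendrocyte lineage (O4).

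The OPC libraries held between 14935963 and 19812274 counts each, and the neuron libraries between 15052901 and 16344585. The targeted gene Cacna1c had normalized counts of 373 to 439 in ctl and 252 to 337 in dKO OPCs, and Cacna1d had 191 to 255 in ctl and 93 to 232 in dKO OPCs. Counts per gene do not resolve the floxed exons, so they check the deletion only in part. Marker lists were summed per library as CPM, the count scaled by the library total. In the OPC libraries 11 mature oligodendrocyte markers such as Mbp and Mog summed to between 38300 and 64200 CPM, against 507 to 1810 CPM for 10 OPC markers such as Pdgfra. In the neuron libraries 10 endothelial markers such as Cldn5 and Pecam1 summed to between 12300 and 25800 CPM, against 765 to 1750 CPM for 12 neuronal markers such as Snap25. Every marker on these lists was detected in both sets of libraries, those of other cell types included, so detection alone could not test the labels. Both sets of libraries held much RNA of other cells. In such bulk samples, fewer cells of a type and less RNA per cell cannot be told apart. Neuron dKO 1 stood apart from the other dKO neuron libraries, with a chi-square per gene of 105 and 118 against them, compared with 23 between those 2. It had the lowest endothelial sum, at 12300 CPM, and the highest neuronal sum, at 1750 CPM, and the choroid and ependymal markers, at 31300 CPM, exceeded the endothelial ones there alone, with the choroid plexus gene Ttr at 30700 CPM against 4570 to 14300 CPM in the other neuron libraries. Members whose call at an unadjusted p under 0.05 changed without this library are given with and without it.

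**Figure D1:**
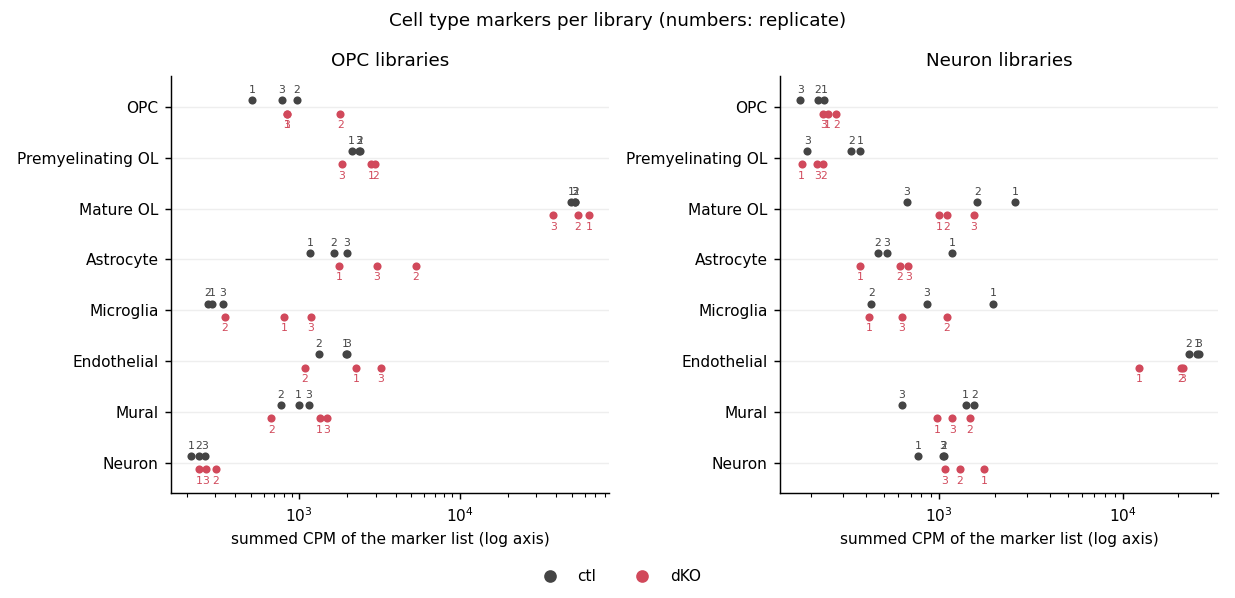
Summed CPM of 8 cell type marker lists in each library (horizontal log axis), with OPC libraries on the left and neuron libraries on the right. Points are single libraries numbered by replicate, in grey for ctl and red for dKO, and OL stands for oligodendrocyte. Mature oligodendrocyte markers lead in the OPC libraries (38300 to 64200 CPM) and endothelial markers (12300 to 25800 CPM) are the highest of the plotted lists in the neuron libraries.

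Levels of different genes were compared per transcript length, as deposited FPKM in OPCs and as deposited TPM summed over transcripts in neurons, and within a cell type only, since the tables were counted in different ways. In OPCs the ligands with the highest mean level over the 6 libraries were Sema7a, Sema4d and Sema6d, and the receptors with the highest were Plxnb3, Plxnb2 and Plxnb1. Sema7a, a lipid-anchored semaphorin that can signal through Plxnc1 and integrins, had 66.5 FPKM ± 21.3 (SD, n = 6), which was higher than 97.1% of the genes tested. Plxnb3, a receptor for Sema5a that is characteristic of oligodendrocytes, followed with 63.6 FPKM ± 14.5 (SD, n = 6). Sema4d, a ligand of B-class plexins, had 42.3 FPKM ± 7.8 (SD, n = 6). Plxnb2 and Plxnb1, the widely expressed B-class receptors of class 4 ligands, had 33.0 ± 5.85 and 26.5 ± 3.56 FPKM (SD, n = 6). Sema6d, a transmembrane ligand of A-class plexins, had 25.4 FPKM ± 4.08 (SD, n = 6).

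The order of the OPC levels was gradual. Each member's range over the 6 libraries overlapped that of the next member down, with a single exception at the bottom of the order, where Plxnc1 (0.537 to 1.06 FPKM) lay above Sema3a (0.0394 to 0.324 FPKM). The A-class plexins, which transduce class 3 signals together with neuropilins, lay far below the B-class, with means from 1.02 FPKM for Plxna4 to 3.08 FPKM for Plxna1. Nrp1 and Nrp2, the binding subunits for class 3 ligands, had means of 4.4 and 2.67 FPKM. Among class 3 ligands, Sema3g led with 21.3 FPKM ± 7.51 (SD, n = 6) and Sema3a was the lowest member of all with 0.103 FPKM ± 0.11 (SD, n = 6).

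In neurons the order was a different one. Sema3c, a secreted class 3 ligand, led with 287 TPM ± 109 (SD, n = 6), followed by Sema6a with 26.5 TPM ± 8.73 and Sema6d with 16.2 TPM ± 4.09 (SD, n = 6), both membrane-bound ligands of A-class plexins. The highest receptors were Nrp1 with 116 TPM ± 38 (SD, n = 6), Plxna2 with 24.6 TPM ± 8.11 and Plxnb2 with 23.9 TPM ± 7.53 (SD, n = 6). Nrp1 lay above Sema6a in all libraries when ranges were compared (40.4 to 143 against 10 to 35.2 TPM), and every other pair of neighbours overlapped. Nrp1 is also a co-receptor for vascular endothelial growth factor in endothelial cells, and the endothelial marker sums of these libraries are given above, but their part in the Nrp1 and Sema3c levels was not tested. Plxnb3, second in the OPC order, was 26th in neurons with 1.6 TPM ± 0.79 (SD, n = 6), and Sema4g was the lowest with 0.507 TPM ± 0.159 (SD, n = 6).

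**Figure D2:**
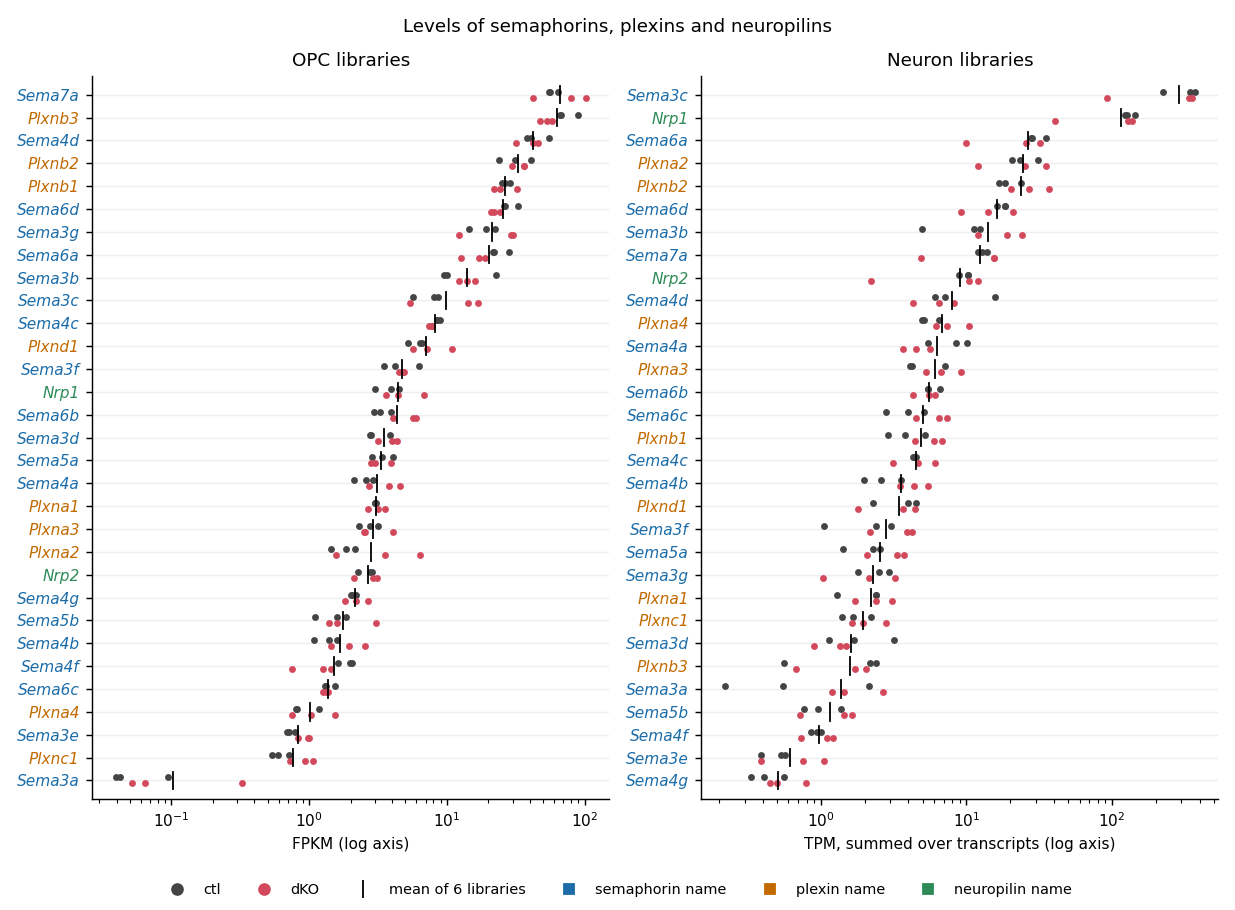
Per-length level of the 31 members in each OPC library (FPKM, left) and neuron library (TPM summed over transcripts, right), on log axes, with members ordered by their mean (black tick) in that cell type. Points are single libraries, in grey for ctl and red for dKO, and the colour of a name gives its family. Sema7a, Plxnb3 and Sema4d head the OPC order and Sema3c and Nrp1 head the neuron order.

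The comparison of dKO with ctl asks how the family differs in cells of the lineage at which the deletion was aimed and in neurons of the cortex. It was made within each cell type on TMM-normalized counts with edgeR's quasi-likelihood test across all genes that passed the count minimum (17364 in OPCs, 14352 in neurons), with Benjamini-Hochberg adjustment. At an adjusted p under 0.05, 0 of 31 members passed in OPCs and 0 in neurons with edgeR, and 0 in either with DESeq2. With edgeR the smallest adjusted p was 0.31 in OPCs and 0.521 in neurons. DESeq2 gave smaller adjusted p-values, such as 0.101 for Sema6a in OPCs and 0.249 for Plxna4 in neurons. Over all genes tested edgeR called 0.00576% in OPCs (1 gene) and 0% in neurons, while DESeq2 called 293 and 88 genes. The differences that follow are described with unadjusted p-values and read against the share of all genes with the same p. The p-values measure the spread between these pools of mice.

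In OPCs, 8 of 31 members (25.8%) had an unadjusted edgeR p under 0.05, where 11.5% of all genes tested had one. Of these, 4 were higher in dKO (Sema6b, Sema4a, Plxna2 and Plxnc1), where the background was 6.27%, and 4 were lower (Sema6a, Sema6d, Sema4f and Plxnb3), where it was 5.27%. Values of the 3 ctl and 3 dKO libraries did not overlap for 8 members (25.8%), against 17.0% of all genes, with 3 higher in dKO (background 7.41%) and 5 lower (background 9.55%). The median log2 fold change was 0.14 over the 31 members and 0.01 over all genes tested, and 21 members were higher and 10 lower. The count depended on single libraries. Without dKO 3, 3 members had an unadjusted p under 0.05 where 11.2% of all genes did, so that the share of members was below that of all genes. The count was 5 without ctl 2 (6.34% of all genes) and 5 without ctl 3 (9.17%), while 12 had one without dKO 2 (13.3%). Sema6a, Sema6b and Plxnb3 kept an unadjusted p under 0.05 in all 6 fits that left out a library.

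**Figure D3:**
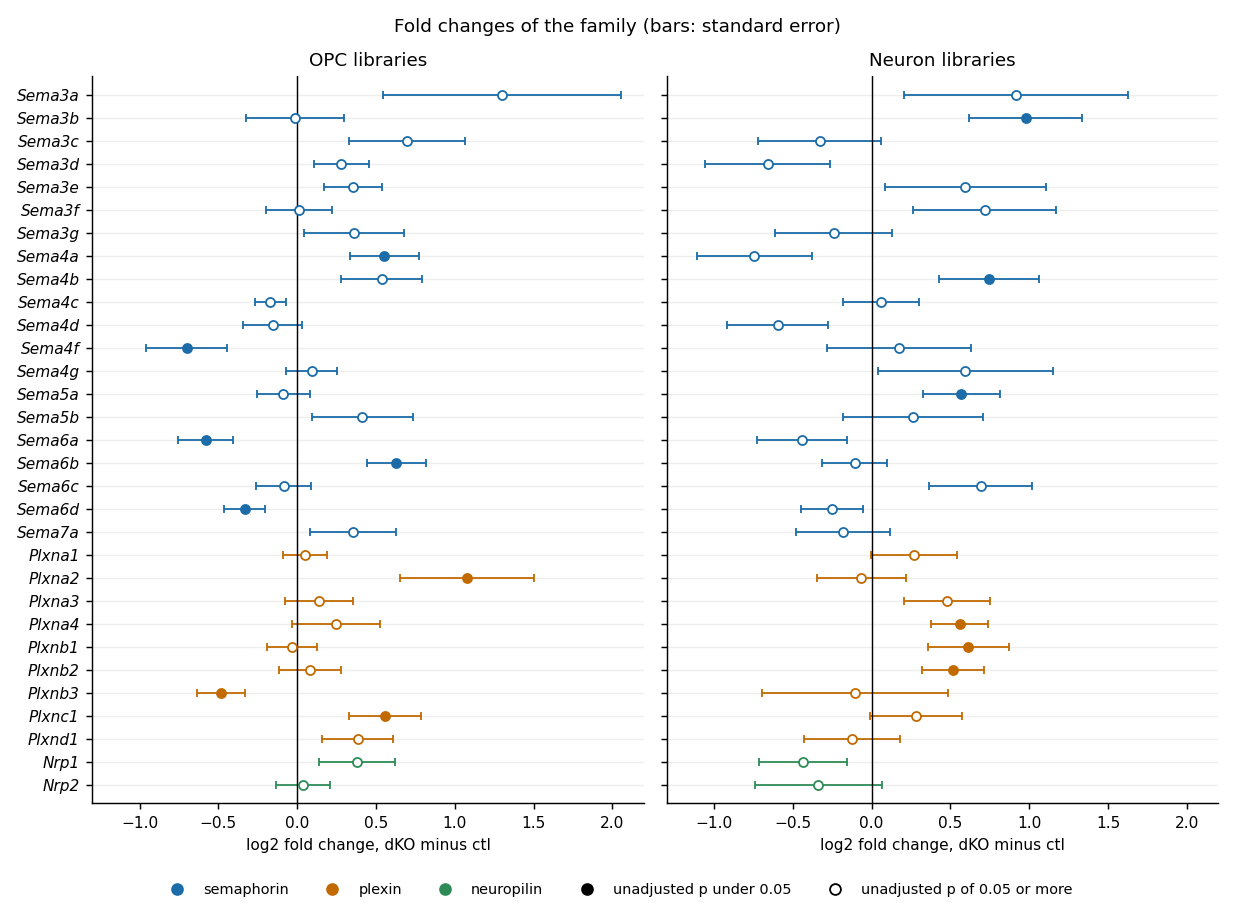
Log2 fold change (dKO minus ctl) with its standard error for each of the 31 members in OPCs (left) and neurons (right), from edgeR. Filled points have an unadjusted p under 0.05, which holds for 8 members in OPCs, 4 on each side of 0, and for 6 members in neurons, all above 0. The widest bars belong to Sema3a, the least counted member in OPCs.

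Among the ligands lower in dKO OPCs, Sema6a is a transmembrane semaphorin of the oligodendrocyte lineage that binds Plxna2 and Plxna4. Its normalized counts were 3406, 4357 and 3419 in ctl 1, 2 and 3 and 2872, 2659 and 1946 in dKO 1, 2 and 3. All dKO libraries lay below all ctl libraries, and dKO 3 was the lowest. Its log2 fold change was -0.58 ± 0.17 (SE; edgeR, unadjusted p = 0.00912), a mean of 3730 in ctl against 2490 in dKO. It stayed between -0.69 and -0.44 when each library was left out in turn. Sema6d, the other abundant class 6 ligand, had counts of 4880, 5999 and 4920 in ctl and 4072, 4522 and 3935 in dKO. The groups again did not overlap, and ctl 2 was the highest library for Sema6a and Sema6d alike. The log2 fold change of Sema6d was -0.33 ± 0.13 (SE; edgeR, unadjusted p = 0.0326), and the p lay above 0.05 in 3 of the 6 fits that left out a library, at 0.118 without ctl 2, 0.0818 without dKO 1 and 0.0671 without dKO 3.

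Sema4f, a transmembrane semaphorin found at glutamatergic synapses and in oligodendrocyte precursors, had the largest fitted decrease of the family in OPCs. Its counts were 152, 182 and 190 in ctl and 133, 119 and 69.5 in dKO. The dKO libraries were below the ctl libraries throughout, and dKO 3 was again the lowest. This gave a log2 fold change of -0.70 ± 0.26 (SE; edgeR, unadjusted p = 0.0255), and the p lay above 0.05 in 3 of the 6 fits that left out a library. Sema4c, a ligand of Plxnb2, did not overlap between the groups either, with 688, 716 and 685 in ctl and 592, 637 and 627 in dKO. This was a small difference, with a log2 fold change of -0.17 ± 0.1 (SE; edgeR, unadjusted p = 0.126).

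Plxnb3 was the receptor with the lowest p in OPCs. Its counts were 7742, 10087 and 7564 in ctl and 6527, 6148 and 5481 in dKO, so every dKO library was below every ctl library. Its log2 fold change was -0.48 ± 0.15 (SE; edgeR, unadjusted p = 0.0129) and stayed between -0.57 and -0.34 without each library in turn. On the FPKM scale its mean was 74.1 in ctl and 53.1 in dKO. The related B-class receptors lay near 0, with log2 fold changes of -0.03 ± 0.16 (SE) for Plxnb1 and 0.08 ± 0.2 (SE) for Plxnb2. Mature oligodendrocyte markers went in the same direction, with 9 of the 11 lower in dKO, a median log2 fold change of -0.42 and 3 at an unadjusted p under 0.05. Their summed level was 49200 to 52500 CPM in ctl and 64200, 54300 and 38300 CPM in dKO 1, 2 and 3, and the part of this in the lower Plxnb3, Sema6a, Sema6d and Sema4f was not tested.

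The sequences before the start sites of Plxnb3, Sema4f and Sema6d are shown because, of the 8 members with an unadjusted p under 0.05 in OPCs, these hold the first of the motifs searched, and that of Sema6b is shown as a member higher in dKO OPCs with neither motif. They were chosen after the matches were seen. They are the 250 bases before the annotated start, 5′ to 3′ on the gene's strand, from RefSeq on GRCm38.p6, and 26 of the 31 members had an entry. Capitals mark ACAAAG (or its reverse complement CTTTGT), a core recognised by SOX factors, and CAGCTG, an E-box, which were searched on both strands and do not overlap here. The windows lie at chrX:73756853-73757102 (plus strand) for Plxnb3, chr6:82939770-82940019 (minus strand) for Sema4f, chr2:124653331-124653580 (plus strand) for the second of 2 Sema6d starts and chr17:56140344-56140593 (minus strand) for the first of 2 Sema6b starts.
Plxnb3: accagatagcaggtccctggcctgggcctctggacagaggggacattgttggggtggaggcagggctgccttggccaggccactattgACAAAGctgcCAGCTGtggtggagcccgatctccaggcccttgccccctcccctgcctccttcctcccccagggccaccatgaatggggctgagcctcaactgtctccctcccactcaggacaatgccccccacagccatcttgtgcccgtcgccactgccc
Sema4f: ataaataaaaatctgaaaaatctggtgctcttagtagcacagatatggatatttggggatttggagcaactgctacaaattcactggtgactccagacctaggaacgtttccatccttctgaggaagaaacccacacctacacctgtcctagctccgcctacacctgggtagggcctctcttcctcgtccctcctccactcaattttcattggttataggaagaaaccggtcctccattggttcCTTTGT
Sema6d: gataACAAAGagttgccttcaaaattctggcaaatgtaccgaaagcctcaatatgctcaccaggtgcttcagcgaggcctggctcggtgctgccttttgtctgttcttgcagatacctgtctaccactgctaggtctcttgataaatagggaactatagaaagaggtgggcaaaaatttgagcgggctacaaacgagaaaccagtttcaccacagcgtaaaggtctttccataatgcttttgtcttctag
Sema6b: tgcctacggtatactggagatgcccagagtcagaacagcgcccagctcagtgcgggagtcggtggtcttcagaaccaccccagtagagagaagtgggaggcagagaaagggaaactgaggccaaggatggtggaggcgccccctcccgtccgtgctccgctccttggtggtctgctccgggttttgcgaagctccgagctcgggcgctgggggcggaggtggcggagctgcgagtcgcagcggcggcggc
The 26 members had 37 windows, since some have several starts. ACAAAG lay in 5 of these windows (13.5%), of Plxnb3, Sema4f, Sema6d, Sema3a and Sema3d, and in 16.5% of all 32851 RefSeq windows of this length. CAGCTG lay in 6 of the 37 (16.2%), Plxnb3 among them, and in 13.0% of all windows. Neither motif was in either Sema6b window or in the other Sema6d window. Sema6a, lower in dKO OPCs, and Sema4a, Plxna2 and Plxnc1, higher there, were not among the members with either motif, which also holds for any member without an entry. These matches describe the letters in the windows and were not tested as binding sites.

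Sema6b was the ligand with the lowest p among members higher in dKO OPCs. This class 6 ligand of A-class plexins had counts of 208, 225 and 276 in ctl and 392, 286 and 418 in dKO. All dKO libraries lay above all ctl libraries, though dKO 2 exceeded ctl 3 by little. The log2 fold change was 0.63 ± 0.19 (SE; edgeR, unadjusted p = 0.00933), so the 4 class 6 ligands were split, with Sema6a and Sema6d lower, Sema6b higher and Sema6c at -0.08 ± 0.17 (SE). Sema4a, a class 4 ligand also known from immune cells, had 203, 274 and 244 in ctl and 254, 438 and 365 in dKO. Its groups overlapped, because dKO 1 fell within the ctl values, and the log2 fold change was 0.55 ± 0.22 (SE; edgeR, unadjusted p = 0.0326), with a p above 0.05 in 4 of the 6 fits that left out a library. Sema3e, the secreted ligand of Plxnd1, was low but did not overlap between groups, with 129, 116 and 113 in ctl and 135, 162 and 162 in dKO. Its log2 fold change was 0.36 ± 0.18 (SE; edgeR, unadjusted p = 0.0856).

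Among the receptors higher in dKO OPCs, Plxnc1, the plexin that binds Sema7a, had counts of 79.6, 86.9 and 106 in ctl and 107, 137 and 156 in dKO. The groups were separated by about 1 normalized count, between ctl 3 and dKO 1. Plxnc1 had a log2 fold change of 0.56 ± 0.23 (SE; edgeR, unadjusted p = 0.0397), and the p lay above 0.05 in 4 of the 6 fits that left out a library. Microglial markers, of which all 12 were higher in dKO OPCs at an unadjusted p under 0.05, summed to 287, 269 and 335 CPM in ctl and 805, 343 and 1180 CPM in dKO. Astrocyte markers, of which 8 of 10 were higher at that threshold, summed to 1170, 1640 and 1980 CPM in ctl and 1770, 5310 and 3040 CPM in dKO. The 10 OPC markers were all higher too, with a median log2 fold change of 0.64 and 2 at that threshold, and summed to 507, 967 and 777 CPM in ctl and 845, 1810 and 839 CPM in dKO. The 6 fibroblast markers were all higher with 0 at that threshold, and summed to 63 to 86.1 CPM in ctl and 70 to 162 CPM in dKO. Of the 12 neuronal markers 11 were higher, with a median log2 fold change of 0.37 and 1 at that threshold, and they summed to 212 to 259 CPM in ctl and 238 to 303 CPM in dKO. The 6 choroid and ependymal markers had a median of 0.05 and 0 at that threshold, and summed to 23900, 10100 and 11900 CPM in ctl and 15900, 16800 and 17400 CPM in dKO. The part of these lists in the OPC differences of the family was not tested.

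Plxna2, a receptor for class 3 and class 6 ligands, had the largest fold change of the 8, with counts of 657, 432 and 557 in ctl and 1068, 475 and 1944 in dKO. The groups overlapped, since dKO 2 lay within the ctl range while dKO 1 and dKO 3 lay above it. On the log2 scale the fold change was 1.08 ± 0.43 (SE; edgeR, unadjusted p = 0.0332). The p lay above 0.05 in 4 of the 6 fits that left out a library. The fold change was 0.48 without dKO 3 (unadjusted p = 0.181), and 1.45 without dKO 2 (adjusted p = 0.0401, edgeR). Sema3c showed the same split of the dKO libraries, with 1100, 703 and 1010 in ctl and 1760, 680 and 2124 in dKO, and a log2 fold change of 0.70 ± 0.37 (SE; edgeR, unadjusted p = 0.0917). Without dKO 2, Plxna2 and Sema3c (adjusted p = 0.0456, edgeR) were the members past the adjusted threshold, in a fit that called 199 genes. Sema7a had 3264, 3174 and 3714 in ctl and 4611, 2461 and 5912 in dKO, with overlapping groups and a log2 fold change of 0.36 (edgeR, unadjusted p = 0.229) that was 0.06 without dKO 3 and 0.64 without dKO 2 (edgeR, unadjusted p = 0.00324).

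The 10 endothelial markers summed to 1950, 1330 and 2000 CPM in ctl and 2260, 1080 and 3220 CPM in dKO OPCs, and 8 mural markers to 992, 771 and 1150 CPM in ctl and 1340, 671 and 1490 CPM in dKO. All 10 endothelial markers were higher in dKO (median log2 fold change 0.285), as were 6 of the 8 mural markers (median 0.393), with 0 of either list at an unadjusted p under 0.05. Both lists were lowest in dKO 2 and highest in dKO 3, as were Sema3c and Sema7a, while Plxna2, Nrp1 and Plxnd1 had their highest value in dKO 3 and their lowest in ctl 2. Nrp1 had 689, 517 and 769 in ctl and 758, 629 and 1184 in dKO OPCs, with overlapping groups and a log2 fold change of 0.38 ± 0.24 (SE; edgeR, unadjusted p = 0.152). The part of vascular RNA in these members was not tested.

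**Figure D4:**
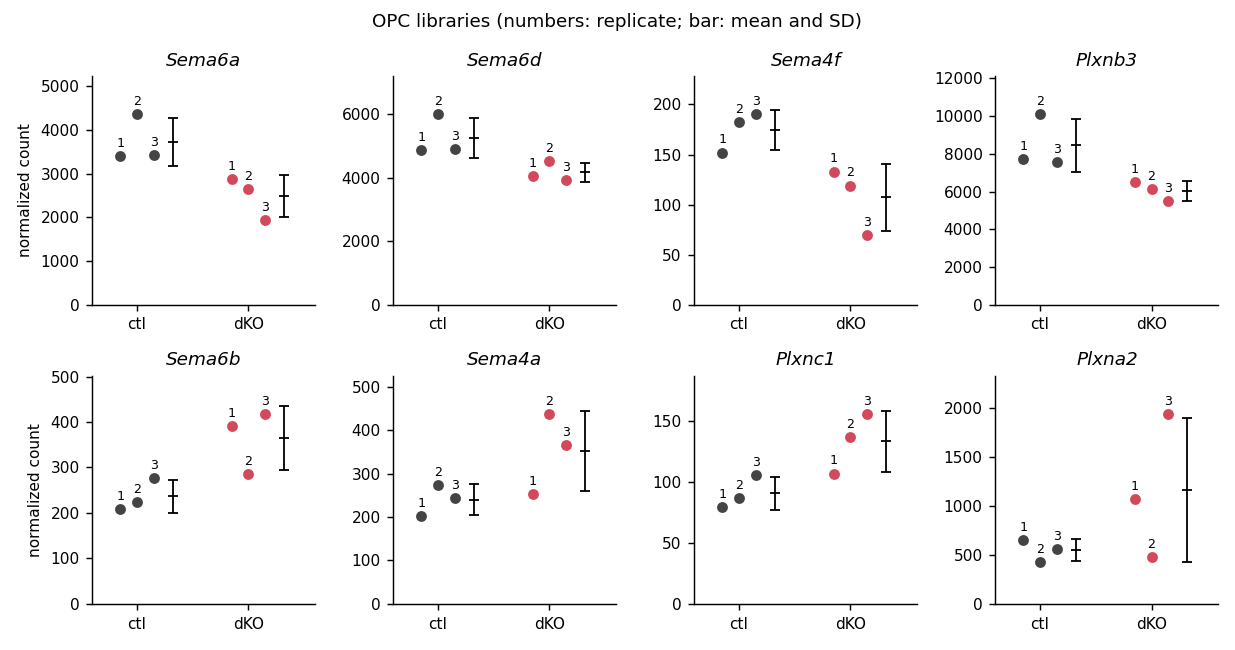
Normalized counts (vertical axis, from 0) of the 8 members with an unadjusted p under 0.05 in OPCs. Each point is a library numbered by replicate, in grey for ctl and red for dKO, beside the group mean with its SD. The top row holds the 4 members lower in dKO, whose groups do not overlap, and in the bottom row the groups overlap for Sema4a and Plxna2.

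Sema4d, Plxnb1 and Plxnb2, which are among the most abundant members in OPCs, had overlapping groups. Sema4d had 5171, 7367 and 5501 in ctl and 6152, 5720 and 4330 in dKO, with a log2 fold change of -0.15 ± 0.19 (SE; edgeR, unadjusted p = 0.427). Plxnb1 had 4499, 4775 and 4276 in ctl and 3663, 5449 and 4123 in dKO, a wide spread in dKO around the ctl values (edgeR, unadjusted p = 0.837). Plxnb2 had 5576, 3248 and 4266 in ctl and 3996, 4948 and 4911 in dKO, all dKO values within the ctl range (edgeR, unadjusted p = 0.69). Of the 7 class 3 ligands, 6 had a fitted value above 0 and 0 had an unadjusted p under 0.05. The largest fitted value among them, 1.30 ± 0.75 (SE) for Sema3a, came from 9.53 to 23 counts in ctl and 15.6, 12.7 and 79.2 in dKO, so that dKO 3 alone lay above ctl. All 4 A-class plexins had a fitted value above 0, with Plxna2 alone at an unadjusted p under 0.05. The other members of both families not given here had overlapping groups and unadjusted p-values from 0.069 (Sema4b) to 0.97 (Sema3b).

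In neurons, 6 of 31 members (19.4%) had an unadjusted edgeR p under 0.05, against 9.00% of all genes tested. All 6 were higher in dKO, where the background was 4.96%, and 0 were lower, where it was 4.04%. They were the receptors Plxna4, Plxnb1 and Plxnb2 and the ligands Sema3b, Sema4b and Sema5a. The groups did not overlap for 4 members (12.9%), against 15.3% of all genes, with Plxna4, Plxnb2 and Sema5a higher (background 7.50%) and Nrp1 lower (background 7.82%). This held for TMM-normalized counts only, since on the deposited TPM scale the groups of all 4 members overlapped. The median log2 fold change was 0.17 over the members and 0.01 over all genes tested, and 17 members were higher and 14 lower. With a count minimum of 50, which left 27 members, the median was -0.07. Without neuron dKO 1, which stood apart, 4 members had an unadjusted p under 0.05 (Plxna4, Plxnb2, Sema4a and Sema5a). All genes had a share of 8.29% in that fit. The count was 2 without ctl 1 (5.45% of all genes), 2 without ctl 3 (6.94%), 3 without dKO 2 (11%) and 9 without ctl 2 (8.35%), so that without ctl 3 or dKO 2 the share of members was below that of all genes. The split by direction moved as well, to 1 higher and 2 lower (Sema6a and Sema6d) without dKO 2, 1 higher and 1 lower without ctl 3, 3 higher and 1 lower without dKO 1 and 7 higher and 2 lower without ctl 2. In all, 0 members kept an unadjusted p under 0.05 in all 6 such fits.

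Plxna4, a receptor of Sema3a and Sema6a in axon guidance, had the lowest p in neurons. Its counts were 555, 753 and 653 in ctl and 912, 1157 and 818 in dKO. On these normalized counts the dKO libraries lay above the ctl libraries throughout, with dKO 2 the highest. This was a log2 fold change of 0.56 ± 0.18 (SE; edgeR, unadjusted p = 0.0142), and the p reached 0.0556 without dKO 2. Plxnb2 had 945, 1390 and 1193 in ctl and 1478, 2069 and 1491 in dKO, again with no overlap of these counts, and a log2 fold change of 0.51 ± 0.2 (SE; edgeR, unadjusted p = 0.0292). Its p stayed under 0.05 in 3 of the 6 fits that left out a library, and its log2 fold change was 0.34 without dKO 2. Plxnb1 had 336, 238 and 238 in ctl and 496, 465 and 283 in dKO. Its groups overlapped at dKO 3, and the log2 fold change was 0.61 ± 0.26 (SE; edgeR, unadjusted p = 0.0417). Without dKO 1 the p of Plxnb1 was 0.126.

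Sema5a, a transmembrane ligand with thrombospondin repeats that binds Plxna1, Plxna3 and Plxnb3, had 216, 252 and 151 in ctl and 257, 313 and 349 in dKO. The groups were separated by a narrow gap between ctl 2 and dKO 1, and the log2 fold change was 0.57 ± 0.24 (SE; edgeR, unadjusted p = 0.046). The p of Sema5a stayed under 0.05 in 2 of the 6 fits that left out a library. It was 0.066 with the replicate block and 0.256 with the most abundant transcript (edgeR, unadjusted). Sema3b, a secreted ligand that acts through Nrp2, had 306, 332 and 152 in ctl and 631, 303 and 621 in dKO. It was high in dKO 1 and dKO 3 while dKO 2 lay within the ctl range, which gave a log2 fold change of 0.98 ± 0.36 (SE; edgeR, unadjusted p = 0.0247). The choroid and ependymal markers were also highest in those libraries, at 31300 CPM in dKO 1 and 14700 CPM in dKO 3 against 4680 to 9410 CPM in the other 4, and their part in the Sema3b level was not tested. Sema4b, a class 4 ligand, had 89.4, 127 and 77.1 in ctl and 194, 182 and 117 in dKO, with dKO 3 inside the ctl range and a log2 fold change of 0.74 ± 0.32 (SE; edgeR, unadjusted p = 0.046). Without dKO 1, Sema3b was at 0.81 (edgeR, unadjusted p = 0.0738) and Sema4b at 0.61 (edgeR, unadjusted p = 0.118).

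Neuronal markers were higher in 10 of 12 cases in dKO neurons, with a median log2 fold change of 0.53 and 1 at an unadjusted p under 0.05, and summed to 765, 1060 and 1050 CPM in ctl and 1750, 1300 and 1070 CPM in dKO. Endothelial markers were lower in 10 of 10 cases, with a median log2 fold change of -0.42 and 3 at an unadjusted p under 0.05, and summed to 25400, 22900 and 25800 CPM in ctl and 12300, 20700 and 21200 CPM in dKO. All 11 mature oligodendrocyte markers were lower (median -0.84, 1 at that threshold), with 667 to 2590 CPM in ctl and 1000 to 1540 CPM in dKO, as were 6 of 7 markers of committed or premyelinating oligodendrocytes (median -0.80, 2 at that threshold). All 12 microglial markers were lower (median -0.67, 0 at that threshold), with 427 to 1970 CPM in ctl and 417 to 1100 CPM in dKO. The 5 choroid and ependymal markers tested were all higher (median 0.90, 3 at that threshold). Astrocyte markers were lower in 7 of 10 cases (median -0.39, 1 higher and 2 lower at that threshold). OPC markers were lower in 6 of 10 (median -0.27, 1 higher and 1 lower at that threshold). Fibroblast markers were lower in 5 of 6 (median -0.42, 1 at that threshold), and mural markers were split, 4 higher and 4 lower. The part of these shifts in the neuron differences of the family was not tested.

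The values of Nrp1 and Sema3c, the most abundant receptor and ligand of the neuron libraries, depended on dKO 1. Nrp1 had 6053, 6269 and 7241 in ctl and 2715, 6012 and 5731 in dKO. On these normalized counts all dKO libraries were below all ctl libraries, but dKO 2 and dKO 3 only slightly so. On the TPM scale the groups overlapped, with 123, 127 and 143 in ctl and 40.4, 137 and 128 in dKO. The log2 fold change was -0.44 ± 0.28 (SE; edgeR, unadjusted p = 0.154) with dKO 1 and -0.15 without it (edgeR, unadjusted p = 0.261). Sema3c had 9647, 15230 and 18121 in ctl and 5167, 14165 and 14887 in dKO, with overlapping groups. Its log2 fold change was -0.33 ± 0.39 (SE; edgeR, unadjusted p = 0.422) with dKO 1 and 0.02 without it. Sema6a showed the same low library, with 2523, 2017 and 2277 in ctl and 946, 2322 and 1753 in dKO, and a log2 fold change of -0.44 ± 0.29 (SE; edgeR, unadjusted p = 0.16) that became -0.16 without dKO 1 and -0.75 without dKO 2 (edgeR, unadjusted p = 0.0259). In all, 12 members had their lowest neuron value in dKO 1 and 7 their highest, and 28.4% and 29.1% of all genes tested did so. Endothelial markers were lowest in the same library.

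Plxna2, the most abundant A-class plexin in neurons, had 1994, 3068 and 2560 in ctl and 1516, 3356 and 2404 in dKO, the dKO values spreading to both sides of ctl (edgeR, log2 fold change -0.07 ± 0.28 SE, unadjusted p = 0.818, and 0.18 without dKO 1). Sema6d had 1018, 1046 and 1021 in ctl and 687, 1143 and 762 in dKO. Its 3 ctl libraries were close together while dKO 2 lay above and the others below them, and the log2 fold change was -0.25 ± 0.2 (SE; edgeR, unadjusted p = 0.236). It was -0.11 without dKO 1 and -0.50 without dKO 2 (edgeR, unadjusted p = 0.0108). The receptor Plxnb3 had 115, 130 and 33.2 in ctl and 119, 35 and 105 in dKO neurons, an uneven spread in both groups (edgeR, unadjusted p = 0.861). The members not given here had overlapping groups and unadjusted edgeR p-values between 0.0663 (Sema6c) and 0.821 (Sema4c).

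**Figure D5:**
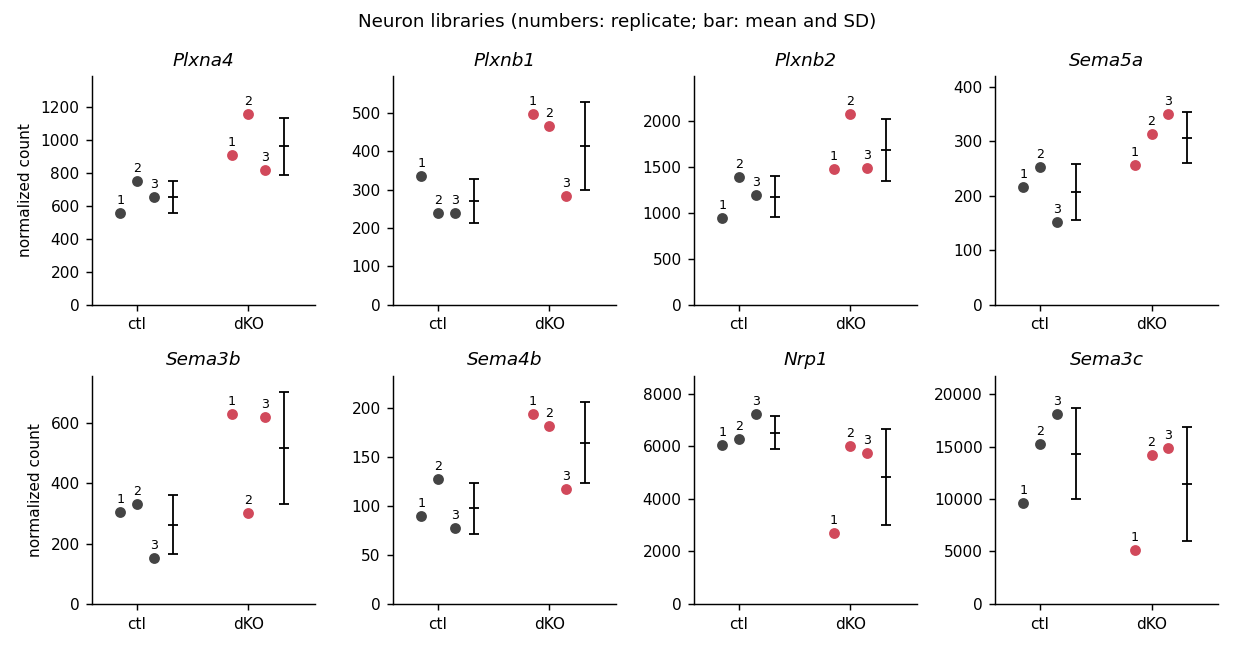
Normalized counts (vertical axis, from 0) in neuron libraries of the 6 members with an unadjusted p under 0.05 and of Nrp1 and Sema3c, the most abundant receptor and ligand. Each point is a library numbered by replicate, in grey for ctl and red for dKO, beside the group mean with its SD. Nrp1 and Sema3c have a single low dKO library, dKO 1.

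Because the neuron table lists estimates per RefSeq transcript, the gene sums could be taken apart. The number of transcripts per member ran from 1 to 39, with 6 members listed as a single transcript. For 9 members, these 6 included, the leading transcript held over 90% of the gene's mean TPM. With the most abundant transcript in place of the gene sum, the fitted direction changed for 5 of the 31 members, namely Sema4a, Sema4f (0.17 to -0.48), Sema4g (0.59 to -0.20), Sema6b (-0.11 to 0.12) and Sema6c (0.69 to -0.18). Of these Sema4a was the furthest from 0 as a gene sum. Its gene counts were 222, 146 and 301 in ctl and 192, 115 and 92.1 in dKO, lower in dKO with overlapping groups (edgeR, log2 fold change -0.75 ± 0.37 SE, unadjusted p = 0.0728), and at -1.11 without dKO 1 (edgeR, unadjusted p = 0.0137). Its leading transcript, with 50.3% of the gene's TPM, had 2.38, 2.95 and 2.49 TPM in ctl and 3.95, 3.58 and 3.68 TPM in dKO, higher in every dKO library. The next transcript, with 28% of the gene's TPM, had 1.9, 0.89 and 7.1 TPM in ctl and 0.7, 0 and 0 TPM in dKO, so ctl 3 carried most of it. With the leading transcript alone the fitted log2 fold change was 0.59 (edgeR, unadjusted p = 0.132). For Nrp1, the leading transcript (66.2% of the gene's TPM) had 84.7, 95.7 and 86.1 TPM in ctl and 28.5, 83.7 and 84.2 TPM in dKO. The next Nrp1 transcript (26.7%) had 15.9, 26.6 and 53.0 TPM in ctl and 0.69, 49.4 and 41.3 TPM in dKO, with overlapping groups. Transcripts that differ in few bases share reads, so these estimates are less certain than the gene sums.

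Members and cell types were set side by side without a test, since each cell type has its own table and scaling. Plxnb3 was -0.48 ± 0.15 (SE) in OPCs and -0.11 ± 0.59 (SE) in neurons. Plxnb2 was 0.08 ± 0.2 (SE) in OPCs and 0.51 ± 0.2 (SE) in neurons. Sema6b was 0.63 ± 0.19 (SE) in OPCs and -0.11 ± 0.21 (SE) in neurons. Whether these differences between cell types exceed the error was not tested.

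Other genes of the pathway were taken as a fixed list of 60 partners and effectors, such as the CRMP proteins that carry semaphorin signals to microtubules, the MICAL enzymes that oxidise actin, small GTPases and their regulators, and adhesion co-receptors. In OPCs 58 were tested, and 14 (24.1%) had an unadjusted edgeR p under 0.05, 10 higher and 4 lower in dKO, against 11.5% of all genes. Without ctl 1 the count was 8, against 9.87% of all genes, and it was 10 to 20 without each of the others. None passed at an adjusted p under 0.05 (0 of 58). The 6 with the smallest p were Tyrobp, Dpysl3, Mical3, Farp1, Trem2 and Cdk5. Dpysl3, a CRMP protein, had 234, 308 and 286 in ctl and 441, 468 and 400 in dKO, higher in every dKO library (edgeR, log2 fold change 0.66 ± 0.15 SE, unadjusted p = 0.00174). Farp1, a Rac exchange factor that binds plexins, had 589, 604 and 751 in ctl and 795, 1217 and 990 in dKO (edgeR, log2 fold change 0.63 ± 0.17 SE, unadjusted p = 0.00597). Mical3 was lower, with 2446, 3012 and 2378 in ctl and 1872, 2023 and 1829 in dKO (edgeR, log2 fold change -0.45 ± 0.12 SE, unadjusted p = 0.00585). Cdk5, the kinase that phosphorylates CRMP proteins, was lower by the same amount, with 1656, 1928 and 1588 in ctl and 1456, 1202 and 1119 in dKO (edgeR, unadjusted p = 0.00861). Tyrobp and Trem2, a microglial receptor complex that plexin A1 can join, had log2 fold changes of 1.33 ± 0.29 and 1.24 ± 0.35 (SE; edgeR, unadjusted p = 0.00165 and 0.00665). Trem2 is on the list of the 12 microglial markers, which were all higher in dKO OPCs.

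In neurons 57 partners were tested, and 6 (10.5%) had an unadjusted edgeR p under 0.05, 5 higher and 1 lower, which is close to the 9.00% of all genes. The count was 2 without ctl 1, 4 without ctl 3, dKO 1 or dKO 2 and 3 with the most abundant transcript per gene. At an adjusted p under 0.05, 0 of 57 passed. The one that was lower was Rras2, a small GTPase on which plexins can act, with 1420, 1261 and 1242 in ctl and 995, 1020 and 945 in dKO (edgeR, log2 fold change -0.41 ± 0.13 SE, unadjusted p = 0.0122). The others were Furin, the protease that processes class 3 ligands, with a log2 fold change of 0.66 ± 0.22 (SE; edgeR, unadjusted p = 0.0147), and Dpysl3, Cdk5r1, Pak3 and Dpysl4, from 0.54 to 1.07. Dpysl3 had 2544, 4048 and 3712 in ctl and 5671, 5193 and 4097 in dKO neurons. It was the partner with an unadjusted p under 0.05 and higher counts in dKO in both cell types, though in neurons the p was 0.0692 without dKO 1 (edgeR).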

How the data were processed

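Cortical OPC and neuron libraries of ctl and dKO mice were grouped by their labels, 3 per group. The OPC table holds raw counts and FPKM per Ensembl gene, as the authors deposited them. Their methods name HISAT2, GRCm38 and featureCounts for this step, while the submitters' processing notes name mm39. Positions in that table match GRCm38 annotation for none of the 31 members, so none are printed from it. The neuron table holds estimated counts and TPM per RefSeq transcript, as the authors deposited them, and the counting tool is not given in the sources used here. Estimated counts were added up by gene and then rounded. The library kit does not mark strand, so reads of overlapping antisense genes cannot be told apart. Columns with the authors' fold changes and p-values were not used.

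Genes were tested by quasi-likelihood in edgeR 4.0.16 under R 4.3.3, with TMM scaling and a term for genotype alone, over genes whose mean normalized count reached 10, with Benjamini-Hochberg adjustment. Standard errors were derived from the fitted log2 fold change and its F statistic. Alternatives were DESeq2 1.42.0, other scalings and filters, a replicate block, the most abundant neuron transcript and each library left out. The fits were tested on simulated data. Values per library are given for members with an unadjusted p under 0.05, with non-overlapping groups, or among the 3 highest ligands or receptors per length, and up to 6 partners are named per cell type by smallest p. Other members were named after their values were seen. Members and lists were chosen with earlier results of these data known. Replicates of a group differed beyond sampling noise (chi-square per gene of at least 15.9). With 3 libraries against 3, an exact permutation test cannot go below p = 0.1. 1 gene of the marker lists is not reported here and was left out of the sums.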

Additional observations from a re-analysis of the deposited data

Results flagged for a closer look

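Pak3, a kinase downstream of Rac in plexin signalling and a gene on the partner list, went in opposite directions in the cell types, with no overlap between groups in either. In OPCs it had 357, 601 and 459 normalized counts in ctl and 349, 352 and 273 in dKO, a log2 fold change of -0.538 ± 0.203 (SE; edgeR, unadjusted p = 0.0282). In neurons it had 720, 1139 and 950 in ctl and 1806, 1155 and 1208 in dKO, a log2 fold change of 0.569 ± 0.228 (SE; edgeR, unadjusted p = 0.0355). The neuron value leaned on dKO 1, the library that stood apart, since dKO 2 lay close to ctl 2, and without dKO 1 it was 0.335 (edgeR, unadjusted p = 0.115). The OPC value was -0.328 without ctl 2 (edgeR, unadjusted p = 0.117). The difference between the cell types was not tested, and the adjusted p was 0.382 in OPCs and 0.524 in neurons (edgeR).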

How the results depend on the processing

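In OPCs the counts of members at an unadjusted p under 0.05 stayed within 1.5 times of 8 with DESeq2 (8), size factors (8), no filter (12), a count minimum of 50 (8 of 30) and the replicate block (9), and 0 members passed the adjusted threshold in each. DESeq2 called 293 genes in OPCs and 88 in neurons where edgeR called 1 and 0. In OPCs edgeR itself called 87 genes with no filter and 27 with the replicate block, and in neurons 0 with each. Leaving out each library gave 3 to 12 members at an unadjusted p under 0.05, 0 to 2 at an adjusted p, 8 to 20 partners and a family median log2 fold change of 0.0423 to 0.233. In neurons the count was 6 in all of these settings, the replicate block included (9 partners in place of 6; Sema3a in place of Sema5a), and 3 members and 3 partners with the most abundant transcript per gene. The neuron median was -0.0665 with a count minimum of 50, which left 27 members. Leaving out each library gave 2 to 9 members, 2 to 7 partners, a median of 0.0738 to 0.19 and 0 members at an adjusted p.

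Named members whose fitted value changed sign were as follows. In OPCs, Sema3b (main value -0.0121) was 0.0192 without a filter and 0.104 with the replicate block, and leaving out libraries spanned -0.236 to 0.521 for it, -0.0727 to 0.468 for Plxna4, -0.214 to 0.0842 for Plxnb1, -0.0922 to 0.297 for Plxnb2, -0.258 to 0.0171 for Sema4d and -0.25 to 0.045 for Sema5a. In neurons the range was -0.371 to 0.181 for Plxna2, -0.506 to 0.27 for Plxnb3, -0.569 to 0.0195 for Sema3c, -0.112 to 0.156 for Sema4c, -0.0543 to 0.422 for Sema4f and -0.353 to 0.107 for Sema7a. With the most abundant transcript, Sema4a (main value -0.746) was 0.585, Sema4f -0.484 and Sema6b 0.124. The causes were not tested. Same-numbered libraries showed little shared deviation (correlations from -0.108 to 0.166). With 3 libraries per group this cannot show whether they were prepared together, and the block is not a known pairing. In OPCs the replicate block added Nrp1 and Sema3c and dropped Sema6d (unadjusted p = 0.0361, 0.0159 and 0.0512, edgeR). Counts under about 50, as for Sema3a in OPCs and Sema4g, Sema4f and Sema3e in neurons, limit what can be seen for those members.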
